A study of Homo sapiens with 6 samples.

Results

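The 10 genes described here were followed across 6 cultures of U87, an established human glioblastoma line: the 4 tissue inhibitors of metalloproteinases (TIMP1, TIMP2, TIMP3 and TIMP4), RECK, PI3, SLPI, TFPI, TFPI2 and CPA4. They were chosen by gene symbol, with earlier results of these data known, and all 10 of them were found among the 23290 genes of the deposited table. In 3 cultures, called shCTR, the cells carried a retroviral scramble vector, and in the other 3, called shC8, a retroviral vector meant to silence Caspase-8, the initiator protease of death receptor signalling. All 6 were grown in the same serum-containing medium, and both groups had been infected with a retrovirus. The sources used here do not give the hairpin sequence, the number of hairpins or whether each replicate was a separate infection. The p-values therefore measure only how far these cultures differ, which the submitters call biological replicates. In such bulk RNA, fewer cells with a message and less of it per cell cannot be told apart.

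Secreted and cell surface proteases cut the extracellular matrix, growth factors and receptors, and each class of protease has its own inhibitors. TIMP proteins bind the active site of matrix metalloproteinases. TIMP3 is held in the matrix and also blocks several ADAM proteases, and RECK is a membrane-anchored metalloproteinase inhibitor. PI3 (elafin) and SLPI are small inhibitors of elastase that share the WAP fold. TFPI and TFPI2 carry Kunitz domains: TFPI stops the start of coagulation by tissue factor, and TFPI2 blocks plasmin and trypsin. CPA4 is not an inhibitor. It encodes carboxypeptidase A4, an enzyme that removes amino acids from the ends of peptides, so the inhibitors proper number 9.

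Values are FPKM, fragments scaled by gene length and by the library's mapped fragments, which allows levels of different genes to be set side by side. The column totals lay between 489055 and 516634 FPKM. Absolute depth is unknown, and the steps between the lowest values placed the other 5 libraries at 1.08 to 1.21 times the depth of shCTR 1. CASP8, the targeted gene, gave 15.1, 14.9 and 13.4 FPKM in replicate order in the control libraries and 4.39, 4.46 and 4.44 FPKM in the shC8 libraries, which left 30.6% of the control level (exact two-sided permutation test p = 0.1, the smallest that 3 against 3 allows). Of 8 markers of the line all were tested, 3 rose (NES, TNC and SPARC, each call kept in 2 of the 6 fits without 1 library) and CD44 fell. Of 6 astrocyte markers 4 were at or near 0, with AQP4 listed at 0 throughout and GFAP at most 0.30 FPKM. The other 2 were tested: the gap junction gene GJA1 rose from 144 ± 25.9 to 234 ± 31.3 FPKM (SD, n = 3 each, limma adjusted p = 0.0289, kept in 2 of 6), and the glutamate transporter gene SLC1A3 fell from 10.9 ± 1.66 to 5.21 ± 0.849 FPKM (SD, n = 3 each, limma adjusted p = 0.00779, kept in 6 of 6). CDKN2A and CDKN2B, which are deleted in U87, were listed at 0 in all 6 libraries.

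In the control cultures the 10 genes differed widely in level. TFPI2 was the most abundant of them, at 2481 ± 427 FPKM (SD, n = 3), and ranked 25 of all 23290 genes by mean FPKM over the 6 libraries. TIMP1 followed at 685 ± 72.6 FPKM and TFPI at 213 ± 14.3 FPKM. TIMP2 (33.5 ± 4.13), TIMP3 (28.0 ± 6.89) and CPA4 (24.0 ± 8.23) formed a middle group, and the ranges of neighbours in this order overlapped. TIMP4 came next at 14.0 ± 1.23, with its highest library above the lowest of CPA4, then PI3 at 7.95 ± 4.37, RECK at 3.09 ± 0.595 and SLPI at 0.481 ± 0.356 FPKM. In the shC8 cultures the order was changed in the middle: TIMP3 and CPA4 lay above TIMP2 in every library, RECK lay above PI3, and the ranges of TFPI and TIMP3 overlapped, as did those of TIMP3 and CPA4 and those of PI3 and SLPI.

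**Figure D1:**
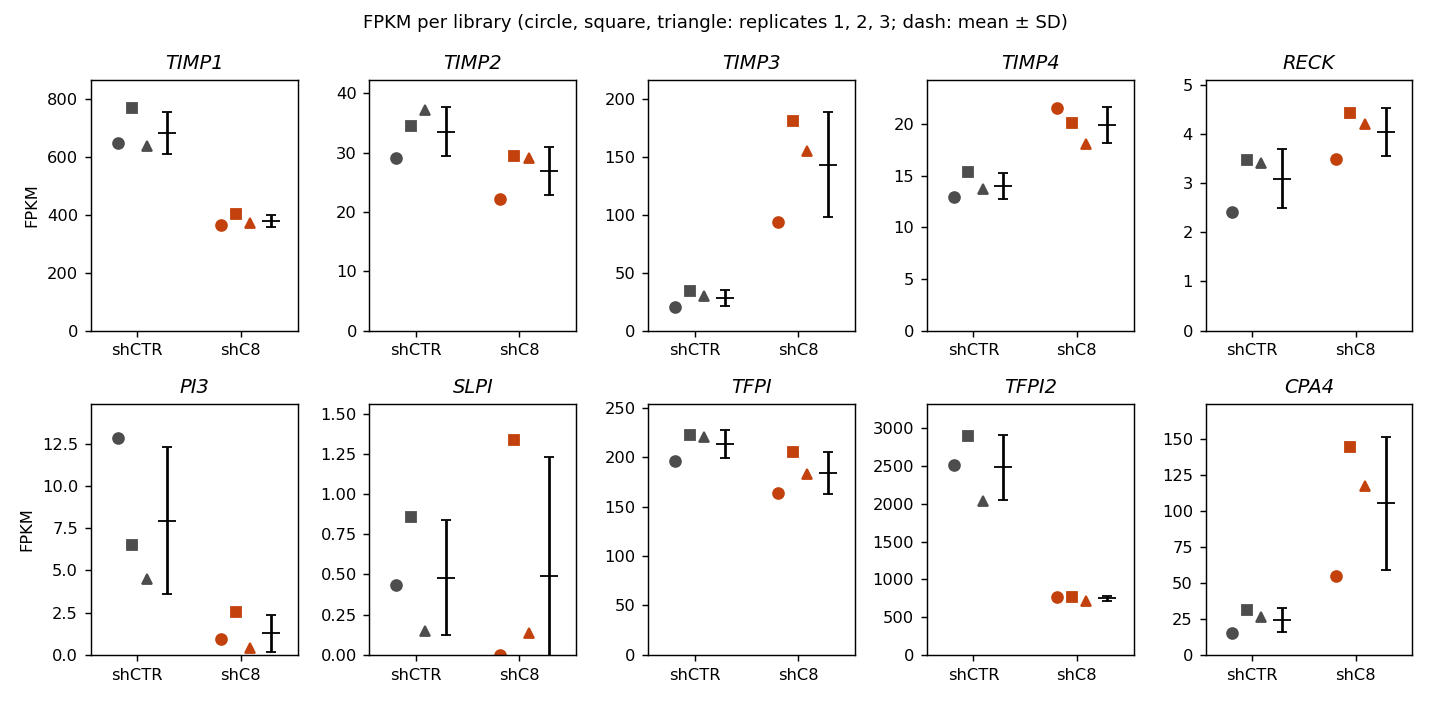
FPKM of each of the 10 genes (vertical axes, linear, from 0) in the 3 shCTR and 3 shC8 libraries; circles, squares and triangles are replicates 1, 2 and 3, and the dash and bar are the mean ± SD, with the SLPI bar running below 0. TIMP1, TFPI2 and PI3 lie lower in every shC8 library and TIMP3, TIMP4, RECK and CPA4 higher, while TIMP2, SLPI and TFPI overlap.

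Of the 10 genes, 3 rose in shC8 (TIMP3, TIMP4 and CPA4) and 3 fell (TIMP1, PI3 and TFPI2). TIMP2, TFPI and RECK did not pass in the main fit, which has no replicate term, and SLPI, with a mean under 1 FPKM, was not tested. The 6 calls of 9 tested genes come from limma on log2(FPKM + 1) with p-values adjusted over all 11598 tested genes, of which 12.1% were called, 7.14% as higher and 4.94% as lower. Groups did not overlap for 7 of the 9 tested genes, against 34.8% of all tested genes. The genes were chosen with earlier results of these data known, so these shares are given for scale and are not a test. The median log2 change of the 9 was -0.21, beside 0.04 over all tested genes. With median-of-ratios scaling the calls over all genes were 649 higher and 757 lower, and with quantile normalization 715 and 731, in place of 828 and 573, while the 6 calls described here were 3 higher and 3 lower under both. With the replicate number as a block in the fit, all 9 were called, 4 higher and 5 lower, beside 26.6% of all tested genes.

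**Figure D2:**
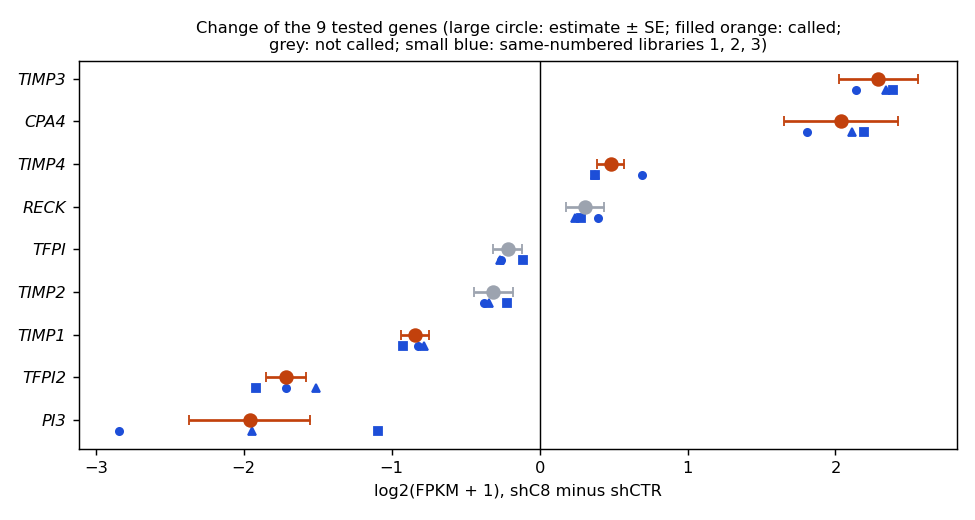
Difference in log2(FPKM + 1), shC8 minus shCTR, for the 9 tested genes, with the SE from limma as bars and the differences within same-numbered libraries as small symbols. All 3 pairs lie on the same side of 0 for each gene, also for the 3 that were not called (grey).

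TIMP3 had the largest rise of the 10. The gene (ENSG00000100234) spans 32801701 to 32863043 of chromosome 22 (plus strand, GRCh38, as for all coordinates here). The control libraries gave 20.4, 33.8 and 29.9 FPKM in replicate order, and the shC8 libraries 93.4, 181 and 155 FPKM. The lowest shC8 library was thus above the highest shCTR library, and replicate 1 was the lowest of its group in both. The log2 change was 2.29 (SE 0.265, limma adjusted p = 0.0039), 8th among all rises. It lay between 2.08 and 2.57 over the fits that left out 1 library, and the call held in all 6. TIMP4 (ENSG00000157150, minus strand of chromosome 3, 12153051 to 12159351), a TIMP best known from heart and brain, rose less, by 0.48 (SE 0.0894, limma adjusted p = 0.0172). It measured 12.9, 15.3 and 13.7 FPKM in the 3 control libraries and 21.5, 20.1 and 18.1 FPKM in shC8, without overlap. Its call ended without shCTR 1 (adjusted p = 0.0571), without shCTR 3 (0.0515) and without shC8 2 (0.0617).

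TIMP1 fell and remained the most abundant TIMP. The gene (ENSG00000102265, plus strand of chromosome X, 47582313 to 47586789) encodes a secreted inhibitor that is also a growth-promoting factor. It was at 648, 769 and 639 FPKM in the 3 control libraries and at 366, 405 and 372 FPKM in shC8, so the groups lay well apart. The log2 change of TIMP1 was -0.84 (SE 0.0948, limma adjusted p = 0.00362), and its adjusted p reached 0.0262 at most when 1 library was left out. TIMP2 (ENSG00000035862, minus strand of chromosome 17, 78852977 to 78925387) helps the membrane protease MMP14 to activate MMP2. It was at 29.02, 34.5 and 37.1 FPKM in the 3 control libraries and 22.2, 29.4 and 29.01 FPKM in shC8, with shC8 2 above shCTR 1. Its change of -0.31 (SE 0.131) did not pass (limma adjusted p = 0.158), and with the replicate block the adjusted p was 0.0111. MMP14 itself fell by 0.39 (limma adjusted p = 0.0366) and MMP2 rose by 0.30 (limma adjusted p = 0.0349). Each of these 2 calls held in only 1 of the 6 fits without 1 library, with adjusted p up to 0.125 and 0.13.

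The opposite changes altered the composition of the TIMP messages. TIMP3 made up 2.88%, 3.97% and 4.15% of the FPKM summed over the 4 TIMP genes in shCTR 1, 2 and 3. In shC8 1, 2 and 3 its share was 18.6%, 28.5% and 27.0%. The means were 3.66 ± 0.688% and 24.7 ± 5.38% (SD, n = 3 each, exact two-sided permutation test p = 0.1, the smallest possible), a share that does not depend on scaling between libraries. TIMP1 took 90.1 ± 1.22% of the sum in shCTR and 67.1 ± 4.96% in shC8, while the TIMP2 share overlapped between groups (exact two-sided permutation test p = 0.6, n = 3 each). TIMP1 exceeded TIMP3 by 21.4 to 31.7 times in the shCTR libraries and by 2.23 to 3.92 times in the shC8 libraries. The sum itself was 761 ± 79.6 FPKM in shCTR and 571 ± 66.5 FPKM in shC8 (SD, n = 3 each), without overlap.

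**Figure D3:**
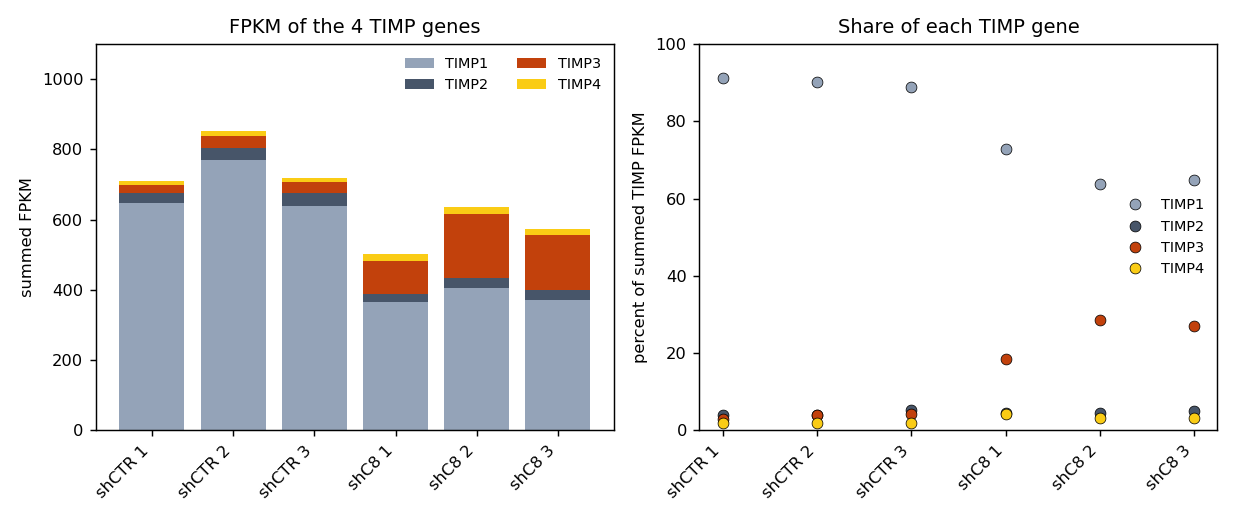
Left, FPKM of TIMP1, TIMP2, TIMP3 and TIMP4 stacked for each library; right, each gene's percent of that sum. The TIMP3 share is 2.88% to 4.15% in the shCTR libraries and 18.6% to 28.5% in the shC8 libraries, and TIMP1 is the largest part in all 6.

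RECK, on the plus strand of chromosome 9 (ENSG00000122707, 36036433 to 36124451), was a low-level message. It read 2.41, 3.47 and 3.40 FPKM in the 3 control libraries and 3.49, 4.44 and 4.20 FPKM in shC8. Every shC8 value was above every shCTR value, though shC8 1 and shCTR 2 were nearly equal. The change of 0.31 (SE 0.131) did not pass (limma adjusted p = 0.168, and 0.0291 with the replicate block).

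Of the Kunitz inhibitors, TFPI2 fell sharply and TFPI did not pass the test. TFPI2 (ENSG00000105825) lies on the minus strand of chromosome 7, from 93885396 to 93890991. It was at 2506, 2894 and 2042 FPKM in the 3 control libraries and at 762, 766 and 715 FPKM in shC8, so even the lowest control was far above the highest shC8 library. The SD in shC8 was 28.4 FPKM, against 427 in shCTR. TFPI2 was 3.32-fold lower, with a log2 difference of -1.71 (SE 0.132; limma adjusted p = 0.00115), and its adjusted p stayed at or below 0.011 in each of the 6 fits without 1 library. Its share of all FPKM in a library went from 0.498 ± 0.0832% to 0.15 ± 0.00597% (SD, n = 3 each). TFPI (ENSG00000003436, minus strand of chromosome 2, 187464230 to 187565760) was at 197, 222 and 221 FPKM in the 3 control libraries and 164, 205 and 183 FPKM in shC8, with shC8 2 above shCTR 1. Its change was -0.21 (SE 0.0978, limma adjusted p = 0.191, and 0.0332 with the replicate block). TFPI2 stood at 9.24 to 13.0 times TFPI in the shCTR libraries and at 3.73 to 4.65 times in the shC8 libraries. Together the 9 inhibitor genes summed to 3466 ± 496 FPKM in shCTR and 1509 ± 95.2 FPKM in shC8 (SD, n = 3 each), and TFPI2 made up 71.4% of the first sum and 49.7% of the second.

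PI3 and SLPI lie 75.7 kb apart on chromosome 20. PI3 fell, and SLPI was too low to be tested. PI3 (ENSG00000124102, plus strand, 45174876 to 45176544) was at 12.9, 6.50 and 4.49 FPKM in the 3 control libraries and at 0.931, 2.51 and 0.426 FPKM in shC8. The groups did not overlap, but the values within each group differed several-fold. The log2 change was -1.96 (SE 0.407, limma adjusted p = 0.0247), and with a pseudocount of 0.1 it was -2.70. The call of PI3 ended without shCTR 1 (adjusted p = 0.0603), without shCTR 2 (0.0637), without shC8 1 (0.0572), without shC8 3 (0.0817) and with no filter on low values (0.0687). SLPI (ENSG00000124107, minus strand, 45252239 to 45254564) was at 0.436, 0.858 and 0.150 FPKM in the 3 control libraries and at 1.34 and 0.138 FPKM in shC8 2 and 3, and was listed at 0 in shC8 1. No direction can be read from these values. Both genes are typical of epithelia. Of 8 epithelial and keratinocyte markers 7 had a mean under 1 FPKM, with KRT5 and KRT14 at or near 0, and the 8 summed to 2.55 to 2.81 FPKM in shCTR and 3.28 to 4.55 FPKM in shC8. KRT18 alone of them was tested, and it rose by 0.63 (limma adjusted p = 0.0212, with 2 of 6 calls kept when 1 library was left out). Its means were 0.740 FPKM in shCTR and 1.68 FPKM in shC8. It thus passed the 1 FPKM filter only through its shC8 level.

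CPA4 (ENSG00000128510, plus strand of chromosome 7, 130293134 to 130324180) rose nearly as much as TIMP3. It measured 14.9, 30.9 and 26.3 FPKM in the 3 control libraries and 54.5, 144 and 117 FPKM in shC8. Replicate 1 was again the lowest in both groups, and the groups did not overlap. The log2 change was 2.04 (SE 0.384, limma adjusted p = 0.0177), and with the replicate block the SE was 0.0816 and the adjusted p 0.000266. The call of CPA4 ended without shCTR 1 (adjusted p = 0.0537), without shC8 2 (0.0569), without shC8 3 (0.0715) and with no filter on low values (0.0549). Latexin (LXN), the known cellular inhibitor of this class of carboxypeptidase, was at 8.77 ± 0.618 FPKM in shCTR and 10.2 ± 2.45 FPKM in shC8 (SD, n = 3 each), which did not pass at 0.18 (limma adjusted p = 0.454). Of 17 other metallocarboxypeptidase genes, 4 were tested and none was called by limma, with 1, CPQ, called higher under the replicate block (adjusted p = 0.0472). CPD and CPE were the most abundant of these, at 32.8 and 11.4 FPKM in shCTR.

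Each deposited column carries a number of unstated meaning, low for shCTR 1, shC8 1 and shCTR 3 and high for the other 3 libraries. Within the low-numbered and the high-numbered libraries the log2 change was 1.88 and 2.28 for TIMP3, 1.41 and 2.04 for CPA4, 0.65 and 0.30 for TIMP4, -0.81 and -0.99 for TIMP1, -1.57 and -1.97 for TFPI2 and -2.17 and -1.74 for PI3. The shCTR and shC8 values of these 6 genes did not overlap. The direction therefore had to be the same in both number ranges, and only the sizes can be read. For the genes not called, TIMP2 changed by -0.55 and -0.23, TFPI by -0.35 and -0.19 and RECK by 0.21 and 0.25 on this scale. The 6 fibroblast and pericyte markers summed to 86.5 to 145 FPKM in shCTR and 221 to 412 FPKM in shC8, most of it COL1A1 and COL1A2. Of 5 tested, COL1A1, COL1A2 and PDGFRB rose and none fell. ACTA2 was at 10.2 and 10.1 FPKM in shCTR and shC8, LUM at 3.69 and 5.13 FPKM (limma adjusted p = 0.559) and DCN, not tested, at 0.449 and 0.328 FPKM. These 3 calls held in 3, 4 and 5 of the 6 fits without 1 library. Their part in the rises of TIMP3 and CPA4 was not tested. The 5 endothelial markers summed to 2.43 to 2.84 FPKM in shCTR and 1.72 to 2.27 FPKM in shC8, and the 5 immune markers, nearly all of it CD68, to 148 to 157 and 135 to 152 FPKM, with none called in either list. With the replicate block the endothelial gene KDR was called lower (limma adjusted p = 0.0853, and 0.0199 with the block). KDR, at 1.66 FPKM in shCTR and 0.986 FPKM in shC8, passed the 1 FPKM filter only through its shCTR level.

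Promoters are shown for the 4 genes of largest change or highest level that had an entry in the RefSeq promoter table (build GRCh38.p14), where 7 of the 10 genes matched. Each is the 250 bases before the RefSeq start, written 5′ to 3′ on the gene's strand, with matches to AP-1 or NF-kB motifs in capitals. AP-1 was searched as TGANTCA and as TGAGTAA, the latter chosen with the TIMP1 promoter in view, and NF-kB by its consensus motif, each on both strands. The windows are TIMP3 at chr22:32801455-32801704 (plus), TIMP1 at chrX:47582186-47582435 (plus), TFPI2 at chr7:93890754-93891003 (minus) and CPA4 at chr7:130292911-130293160 (plus).
TIMP3: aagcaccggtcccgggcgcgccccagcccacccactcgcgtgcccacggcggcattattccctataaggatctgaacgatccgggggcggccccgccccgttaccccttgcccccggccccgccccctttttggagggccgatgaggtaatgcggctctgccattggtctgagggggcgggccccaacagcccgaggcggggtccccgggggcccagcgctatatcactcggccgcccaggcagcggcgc
TIMP1: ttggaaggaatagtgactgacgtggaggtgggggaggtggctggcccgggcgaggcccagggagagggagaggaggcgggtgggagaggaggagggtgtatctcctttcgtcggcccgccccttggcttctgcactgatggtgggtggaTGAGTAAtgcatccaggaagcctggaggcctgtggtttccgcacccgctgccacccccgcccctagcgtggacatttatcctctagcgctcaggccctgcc
TFPI2: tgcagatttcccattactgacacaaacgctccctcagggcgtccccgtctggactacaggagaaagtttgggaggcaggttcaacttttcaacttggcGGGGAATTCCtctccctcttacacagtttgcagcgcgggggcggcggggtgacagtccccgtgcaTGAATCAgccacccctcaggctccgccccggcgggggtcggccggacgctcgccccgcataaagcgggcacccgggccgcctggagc
CPA4: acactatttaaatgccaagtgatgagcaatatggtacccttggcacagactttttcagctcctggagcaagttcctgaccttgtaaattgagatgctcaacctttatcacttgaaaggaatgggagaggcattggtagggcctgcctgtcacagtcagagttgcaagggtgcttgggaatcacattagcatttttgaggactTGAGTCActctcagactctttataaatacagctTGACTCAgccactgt

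TFPI2, which fell, had an AP-1 match, TGAATCA, 87 to 81 bases before the start and an NF-kB match, GGGGAATTCC, 152 to 143 bases before it. CPA4, which rose, had AP-1 matches TGAGTCA and TGACTCA, 48 to 42 and 15 to 9 bases before the start. TIMP1, which fell, had the single match TGAGTAA, 101 to 95 bases before it, and the window of TIMP3, which rose, held no match. The windows of TIMP4, which rose, and of RECK and TFPI, which were not called, were also searched. They are not shown and held no match to any of the motifs. The CPA4 window also held TATAAA, 28 to 23 bases before the start, and on the other strand 30 to 25. Among 35116 RefSeq promoters of this length 6.57% held TGANTCA, 2.21% TGAGTAA, 10.7% TATAAA and 9.96% the NF-kB consensus, on either strand. The CG dinucleotide occurred 26 times in the TIMP3 window, 20 times in that of TFPI2, 12 times in that of TIMP1 and 0 times in that of CPA4, beside a median of 11. TGANTCA reads the same on both strands and was counted once. A match describes letters in the window only.

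The 3 genes most like each called gene were taken as those with the smallest root mean squared difference between log2(FPKM + 1) profiles over the 6 libraries, each centred on its own mean. For TIMP3 they were SERINC2 (0.176), CPA4 (0.208) and the long noncoding RNA UCA1 (0.283), and for CPA4 they were SERINC2 (0.147), TIMP3 (0.208) and COL1A2 (0.277). TIMP3 and CPA4 therefore stood in each other's nearest 3, out of 11598 genes. UCA1, at most 0.207 FPKM in shCTR and 2.82 to 6.78 FPKM in shC8, passed the 1 FPKM filter only through its shC8 level. TFPI2 was nearest to CASP8 itself (0.150), then to ELL2 (0.157) and BTF3L4 (0.164). PI3 was nearest to NAMPT (0.323), the chemokine gene CXCL2 (0.401) and IL36RN (0.409). TIMP1 was nearest to FHOD3 (0.052), RASSF8 (0.0873) and RARS2 (0.0919), and TIMP4 to SEMA4F (0.0345), TRPV2 (0.0351) and DNASE2 (0.0373). These values describe 6 libraries that share the 2 groups, so any gene with a change of like size lies near.

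TIMP1, TIMP3 and TIMP4 lie inside introns of synapsin genes on the opposite strand, and the counting of strand was not given in the sources used here. SYN1, around TIMP1, had means of 0.0899 FPKM in shCTR and 0.0583 FPKM in shC8. SYN2, around TIMP4, had 0.0671 and 0.057, and SYN3, around TIMP3, 0.0108 and 0.0807 FPKM. All 3 were below the filter, far under the TIMP gene each surrounds. GNGT1, which overlaps TFPI2 on the opposite strand in GENCODE 29, was at 0.0397 and 0.0387 FPKM. Among the 35 nearest protein-coding neighbours of the 6 called genes (3 on each side, other described genes left out), 19 were tested, 1 rose and 1 fell, which is 10.5% and near the 12.1% over all tested genes. Both lie on the same side of TFPI2: GNG11, 30.7 kb away, fell by 0.71 (limma adjusted p = 0.0103), and the collagen gene COL1A2, 504 kb away, rose by 1.57 (limma adjusted p = 0.0176). CPA5 and CPA1, carboxypeptidase genes beside CPA4, had means under 0.2 FPKM in both groups. Around the 4 genes not called or not tested, 11 neighbours were tested, 4 (36.4%, beside the 12.1% over all tested genes) rose and none fell. LGALS3BP, 45.9 kb from TIMP2, rose by 0.48 (limma adjusted p = 0.00779). HRCT1 and GLIPR2, 129 and 12.1 kb from RECK, rose by 0.61 and 0.52 (limma adjusted p = 0.00887 and 0.0208). GULP1, 726 kb from TFPI, rose by 0.57 (limma adjusted p = 0.0142). HRCT1, at 0.671 FPKM in shCTR and 1.55 FPKM in shC8, passed the 1 FPKM filter only through its shC8 level.

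Other protease inhibitors, from lists chosen by family, moved in both directions. Over all tested genes 12.1% were called, and 26.6% with the replicate block. All lists were chosen with earlier results of these data known, so the counts in them are not a test. Of 26 serpin genes 11 were tested, of which 3 rose, 4 fell and 4 did not pass, with a median log2 change of 0.10. SERPINB2, which inhibits plasminogen activators, fell by 2.84 (limma adjusted p = 0.00108) and SERPIND1, an inhibitor of thrombin, by 0.93 (limma adjusted p = 0.0161). SERPINH1, a collagen chaperone without protease inhibition, rose by 0.65 (limma adjusted p = 0.00537). These 3 kept their call in all 6 fits without 1 library, while SERPINA1, SERPINB8 and SERPINI1 kept theirs in 1, 2 and 0. SERPINA1, at a mean of 0.558 FPKM in shCTR, passed the 1 FPKM filter only through its shC8 level. SERPINE2 was at 141 ± 26.1 FPKM in shCTR and 185 ± 31.7 FPKM in shC8 (SD, n = 3 each), which did not pass (limma adjusted p = 0.147, and 0.00349 with the replicate block). SERPINB7 was at 74.0 ± 16.1 and 41.0 ± 11.2 FPKM (SD, n = 3 each, limma adjusted p = 0.0505, and 0.00162 with the replicate block). With the block, 4 serpins were called higher and 5 lower.

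Of 27 other genes with Kunitz, WAP or Kazal domains, 5 were tested, WFDC3 rose by 0.86 (limma adjusted p = 0.045) and none fell. WFDC3 had means of 0.772 FPKM in shCTR and 2.22 FPKM in shC8 and passed the 1 FPKM filter only through the latter. It kept its call in 1 of the 6 fits without 1 library. APLP2 and APP, the abundant Kunitz-domain genes of the list, changed by 0.02 and -0.01 (limma adjusted p = 0.848 and 0.952). Of 13 cystatins and other cysteine protease inhibitors 3 were tested and none was called, with 1 called lower under the replicate block. CSTB was at 533 ± 209 FPKM in shCTR and 334 ± 77.5 FPKM in shC8 (SD, n = 3 each, limma adjusted p = 0.189, and 0.00703 with the replicate block), and CAST, the calpain inhibitor, changed by -0.17 (limma adjusted p = 0.135). Of the 4 genes of the alpha-2-macroglobulin family CD109 alone was tested, with a change of -0.09 (limma adjusted p = 0.573), and A2M was at or near 0.

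Of 23 matrix metalloproteinase genes, the proteases that TIMP proteins act on, 7 were tested: MMP3, MMP1 and MMP14 fell, MMP2 rose and 3 did not pass, while with the replicate block 3 were called higher and 3 lower. MMP3, a stromelysin, had log2 change -2.84 (limma adjusted p = 0.00465) and MMP1, an interstitial collagenase, -1.86 (limma adjusted p = 0.00229). Of 12 ADAM and ADAMTS genes 8 were tested, ADAM19 rose by 0.59 (limma adjusted p = 0.00988) and none fell, while with the replicate block 4 were called higher and 2 lower. ADAM17, the sheddase that TIMP3 is known to block, was at 21.8 ± 1.23 FPKM in shCTR and 24.4 ± 1.23 FPKM in shC8 (SD, n = 3 each, limma adjusted p = 0.18). ADAM9 and ADAM10 were the most abundant, with changes of 0.28 and 0.38 (limma adjusted p = 0.0763 and 0.0536, and 0.011 and 0.00464 with the replicate block).

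Of 21 genes of coagulation, fibrinolysis and neutrophil proteases with their receptors, 8 were tested, of which 2 rose and 2 fell. With the replicate block F2RL2 was also called higher, with a change of 0.29 (limma adjusted p = 0.184, and 0.0392 with the block). The protease-activated receptor genes F2RL1 and F2R rose by 0.92 and 0.86 (limma adjusted p = 0.0112 and 0.0129). THBD, which encodes thrombomodulin, fell by 0.88 (limma adjusted p = 0.0135) and the urokinase receptor gene PLAUR by 0.49 (limma adjusted p = 0.0138), each in 5 of the 6 fits without 1 library. F3, the tissue factor that TFPI inhibits, was at 33.4, 68.2 and 29.4 FPKM in the 3 control libraries and 23.1, 64.7 and 41.2 FPKM in shC8, with replicate 2 the highest in both groups and a change of -0.04 (SE 0.411, limma adjusted p = 0.964). The targets of PI3 and SLPI were nearly silent: PRTN3 and CTSG were listed at 0 in every library, and ELANE reached at most 0.19 FPKM. PLAU was the most abundant protease of the list, at 334 ± 52.0 FPKM in shCTR and 250 ± 47.6 FPKM in shC8 (SD, n = 3 each, limma adjusted p = 0.123).

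Of 11 known binding partners 7 were tested, VLDLR fell by 0.67 (limma adjusted p = 0.032, with 2 of 6 calls kept when 1 library was left out) and none rose. VLDLR, a lipoprotein receptor gene, belongs to the receptor family that takes up TFPI. CD63, a surface protein that binds TIMP1, was at 932 ± 50.4 FPKM in shCTR and 917 ± 48.9 FPKM in shC8 (SD, n = 3 each, limma adjusted p = 0.881). SDC4, a heparan sulfate proteoglycan gene, changed by 0.26 (limma adjusted p = 0.106, and 0.0128 with the replicate block).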

How the data were processed

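Total RNA of 6 U87 cultures went into a stranded kit after removal of ribosomal RNA, per the labels' protocols. The authors deposited FPKM per gene symbol and library. The submitters' processing notes name TopHat, Cufflinks, Cuffdiff and the build hg38, without versions or roles. The sources used here give neither the annotation nor any use of strand in counting. FPKM carries no counts, so count models and counting intervals were not used. A value listed at 0 can be a failed estimate.

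The tests used limma 3.58.1 (R 4.3.3; moderated with a mean trend, two-sided) on log2(FPKM + 1), for genes averaging 1 FPKM or more across all 6 libraries. A call required an adjusted p (Benjamini-Hochberg over all genes tested) under 0.05. This scale makes changes of low genes look smaller. The script was tested on simulated data. The alternatives are in the closing section. Same-numbered libraries deviated together: the correlations of their deviations over genes were 0.397, 0.266 and 0.291. The replicate numbers may therefore pair the cultures, although no label says so. The main fit, which gives the calls, has no replicate term, and a possible pairing enters only the fit with the replicate block. Older symbols served for 3 list genes. Gene coordinates are from GENCODE 29.

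The genes described and all lists were chosen with earlier results of these data known. The rule for naming took all 10 described genes and CASP8. From each list it took the called genes (the 4 of largest change where they were more than 5) and the 2 of highest mean FPKM. SERPINB7, SERPINB8, SERPINH1, SERPINI1, CPQ, F2RL2, F3, ADAM17, the neutrophil proteases, the neighbours of genes not called and the markers were named after their values were seen. A few list genes that the rule takes are not reported here.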

Additional observations from a re-analysis of the deposited data

How the results depend on the processing

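Direction never changed in 124 alternative values of the 9 tested genes, and 109 kept their side of the threshold, 12 lost a call and 3 gained one. The 3 gained were TIMP2, TFPI and RECK under the replicate block. The calls of TIMP1, TIMP3 and TFPI2 held in all 14 alternatives each. TIMP4 lost its call in 3, CPA4 in 4 and PI3 in 5. With 1 library left out, between 3 and 5 of the genes were called, 3 of them without shCTR 1, and the count over all genes was between 477 and 1346, in place of 1401: 642, 644 and 840 when shCTR 1, 2 or 3 was left out, and 1346, 574 and 477 when shC8 1, 2 or 3 was. It was 3086 with the replicate block and 96 with a log2 change of at least 1 as a further demand, which TIMP3, CPA4, TFPI2 and PI3 met. The other counts of described genes were 4 when low genes were kept in (979 of 18724 over all genes), 5 when the mean had to reach 5 FPKM (1189 of 8553), where RECK and PI3 were not tested, and 6 with a pseudocount of 0.1, quantile normalization, median-of-ratios scaling, moderation without a trend or the column number range as a term (1439, 1446, 1406, 1336 and 1244 of 11598). The difference in the TIMP3 share lay between 19.1 and 24.1 percentage points with 1 library left out. The CASP8 call held in every alternative. Depth could not be had from FPKM, and 3 cultures a group limit the precision.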
